A study of Mus musculus with 12 samples.

Results

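The replication-dependent histone genes of the mouse lie in a large cluster on chromosome 13 (Hist1) and a small one on chromosome 3 (Hist2). They were examined here through peaks of H3K4me3 and H3K27me3, trimethylation of lysine 4 and of lysine 27 of histone H3. Each cluster was taken as a fixed window of the mouse build mm9, chr13:21700000-23900000 for Hist1 and chr3:96020000-96100000 for Hist2, and every peak that overlapped a window by at least 1 bp was a member. The members were 417 of the 128880 peaks in 8 lists, of which 375 lay in Hist1 and 42 in Hist2. Of these, 360 were among 60795 H3K4me3 peaks and 57 among 68085 H3K27me3 peaks.

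The lists came from ChIP-seq (chromatin immunoprecipitation with sequencing) of primary mouse embryonic fibroblasts (MEFs) of hybrid 129/B6 background. The groups were lincRNA-p21+/+ (WT) and lincRNA-p21-/- (KO) cells, without drug (mock) or after 24 h in doxorubicin, which damages DNA, at 0.5 mM as the labels give it. This unit may have been meant as micromolar, which the labels do not settle. LincRNA-p21 is a long noncoding RNA regulated by p53, and the title of the series asks about its part in Polycomb target gene expression and in the G1/S checkpoint. Where 4 values follow each other without names, they stand for WT mock, WT doxorubicin, KO mock and KO doxorubicin in this order. Each mark and condition had 1 library, so the values below have no replicate check and no p-value was computed, and differences in depth or enrichment between libraries cannot be told apart from differences between conditions. The read depth is unknown, and how many embryos or cultures stood behind a library is not given in the sources used here. The lists carry no gene names and no mm9 annotation was used, so the labelled cell type, the targeted locus and the gene under each peak were not checked here. Each condition enters more than 1 comparison, so the comparisons share libraries and are not independent of each other.

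Replication-dependent histone genes are transcribed mainly in S phase, when new DNA is packed into nucleosomes, and their mRNAs end in a stem-loop in place of a poly(A) tail. Their transcription takes place in histone locus bodies and depends on NPAT, a coactivator phosphorylated by the cyclin E and CDK2 kinase at the G1/S transition. The p53 target p21 inhibits that kinase, which places these genes after the G1/S checkpoint. H3K4me3 marks the starts of active or poised genes, and H3K27me3 is the mark of Polycomb repressive complex 2.

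The RefSeq table of the later build GRCm38.p6 was used for names and gene order alone. In it the Hist1 cluster held 53 protein-coding histone genes, 6 for the linker histone H1, 13 for H2A, 14 for H2B, 9 for H3 and 11 for H4, and 2 histone pseudogenes. Between the first and the last of them lay 77 tRNA genes, 75 vomeronasal receptor (Vmn1r) genes and pseudogenes and 4 Slc17a anion transporter genes. Genes of other kinds in that stretch were not counted. Not every Hist1 peak need therefore belong to a histone gene. Hist2 peaks need not either, since genes around the Hist2 histone genes were not counted. The Hist2 cluster held 10 histone genes, which followed each other as H2ac21, H2ac20, H2bc21, H3c15, H2ac19, H2ac18, H3c14, H4c14, H3c13 and H2bc18 (4 of H2A, 2 of H2B, 3 of H3 and 1 of H4).

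Promoter sequences of 58 of the 63 protein-coding histone genes were found in RefSeq (GRCm38.p6), each from 250 bases before to 50 after the gene's start. Motifs were searched on both strands. CCAAT, the letters bound by NF-Y, was present in 86.2% of the histone promoters against 37.9% of all 27025 promoters, in every one of H1, H2A, H2B and H3 and in 27.3% of H4. TATAAA, the letters of the box bound by TBP, was present in 58.6% against 14.2%. ATTTGCAT, the octamer known from H2B promoters, was present in 20.7% against 1.75%, in 6 of 17 H2A and 6 of 14 H2B promoters and in none of the 6 H1, 10 H3 and 11 H4 promoters. The 150 bases before the start are printed 5′ to 3′ on the gene's strand for 4 Hist2 genes, with matches to these motifs on either strand in capitals. H2ac20 (chr3:96220881-96221030, minus strand) shows CCAAT before a TATA box, and H2bc18 (chr3:96269550-96269699, plus strand) the octamer. H2ac19 (chr3:96240375-96240524, minus strand) and H2ac18 (chr3:96245347-96245496, plus strand) show how alike neighbouring copies can be. These positions are of GRCm38.p6 and cannot be set against the mm9 positions used for the peaks.
H2ac20: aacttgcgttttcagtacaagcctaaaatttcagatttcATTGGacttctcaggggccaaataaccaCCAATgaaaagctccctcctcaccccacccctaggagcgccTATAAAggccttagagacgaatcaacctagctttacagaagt
H2bc18: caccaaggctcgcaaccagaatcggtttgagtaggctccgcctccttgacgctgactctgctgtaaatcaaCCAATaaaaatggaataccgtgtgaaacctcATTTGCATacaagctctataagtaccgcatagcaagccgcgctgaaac
H2ac19: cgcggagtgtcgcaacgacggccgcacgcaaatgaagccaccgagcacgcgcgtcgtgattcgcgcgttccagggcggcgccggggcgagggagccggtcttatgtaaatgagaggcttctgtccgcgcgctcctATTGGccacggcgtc
H2ac18: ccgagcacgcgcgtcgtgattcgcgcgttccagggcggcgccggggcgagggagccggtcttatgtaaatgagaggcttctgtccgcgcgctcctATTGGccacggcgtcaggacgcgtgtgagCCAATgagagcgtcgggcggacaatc
The promoter windows of H2ac19 and H2ac18 shared an unbroken run of 219 bases. Runs of 231 bases were shared by H3c15 and H3c14, 285 by H4c17 and H4c18, 200 by H2ac23 and H2ac24 and 72 by H4c11 and H4c12. In all, 8 of 1653 promoter pairs, with 12 genes, shared at least 30 bases. Reads from such copies can match more than 1 place, and how they were handled is not given in the sources used here. Peaks over near-identical copies are therefore uncertain.

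H3K4me3 was dense in both windows in every condition. The windows held 77 H3K4me3 peaks for WT mock, 95 for WT doxorubicin, 91 for KO mock and 97 for KO doxorubicin, which was 0.517%, 0.577%, 0.635% and 0.643% of the respective lists. Together these peaks covered 169.9 kb, 154.6 kb, 129.0 kb and 162.2 kb in the same order, the shortest length being that of KO mock cells. H3K27me3 had fewer peaks, 16, 14, 12 and 15, which were 0.099%, 0.0799%, 0.0724% and 0.0841% of the lists and covered 48.8 kb, 30.3 kb, 28.4 kb and 28.4 kb.

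**Figure D1:**
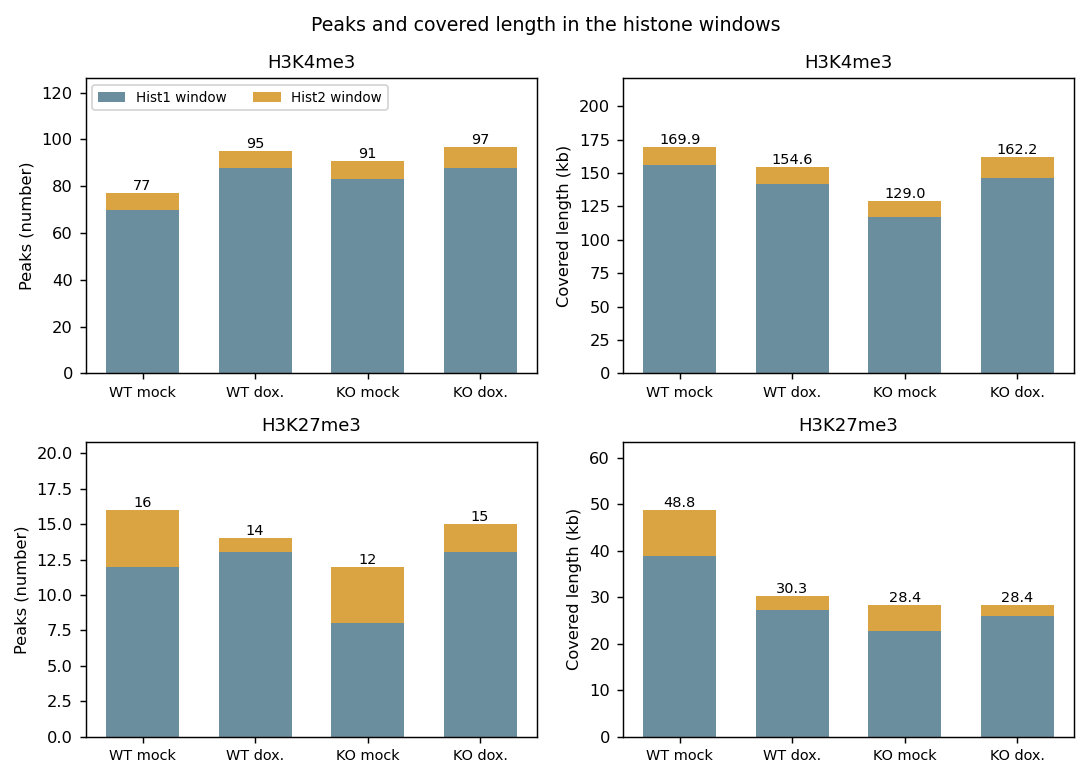
Number of peaks (left) and covered length in kb (right) of H3K4me3 (top) and H3K27me3 (bottom) in each condition, 1 library per bar and so no error bars. Bars are stacked from the Hist1 window and the Hist2 window, with their sum on top. H3K4me3 had its fewest peaks, 77, and its longest covered length, 169.9 kb, in WT mock cells.

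Peak number and covered length of H3K4me3 did not follow each other, since WT mock cells had the fewest peaks and the widest. The median peak of the windows was 1932 bp wide for WT mock, 1396 bp for WT doxorubicin, 1314 bp for KO mock and 1546 bp for KO doxorubicin. Over the whole lists the medians were 2029 bp, 1734 bp, 1723.5 bp and 1777 bp, so WT mock also had the widest median peak over the whole lists. Stretches were listed in pieces more often in the other 3 conditions than in WT mock, though most were 1 peak in every list. When overlapping H3K4me3 peaks of the 4 lists were joined into regions, WT mock held 3 of its 74 regions in more than 1 piece (4.05%, against 0.956% over all regions of that list). WT doxorubicin held 15 of 77 in pieces (19.5%, against 4.29%), KO mock 13 of 75 (17.3%, against 4.5%) and KO doxorubicin 14 of 82 (17.1%, against 3.61%).

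The score of a peak is the authors' own value, headed in the lists as minus 10 times the log10 of a p-value, and its scale differed between lists, so that scores are printed as each list gives them and no change is read from a score in 1 list against another. No list held a score under 80, and many of the strongest H3K4me3 peaks were tied at 3100 or above. The median H3K4me3 score in the windows was 666.7 for WT mock, 570.0 for WT doxorubicin, 306.5 for KO mock and 594.0 for KO doxorubicin. The whole lists had medians of 1511.8, 1525.9, 1161.9 and 2140.6. Scores were also ranked within their own list, from 0% for the lowest to 100% for the highest. The median H3K4me3 peak of the windows stood at 28.6%, 27.6%, 19.7% and 25.6%. Of these peaks 14, 17, 7 and 13 lay in the upper 50% of their list. In Hist2 alone, with 7, 7, 8 and 9 peaks, the median ranks were 22.3%, 53.9%, 13.9% and 20.2%. The Hist2 median in WT doxorubicin cells was above the middle of its list. That median was the rank of 1 peak, chr3:96077308-96079014, which neither mock list held. H3K27me3 peaks of the windows had median ranks of 53.1%, 66.3%, 31.7% and 60.1%.

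**Figure D2:**
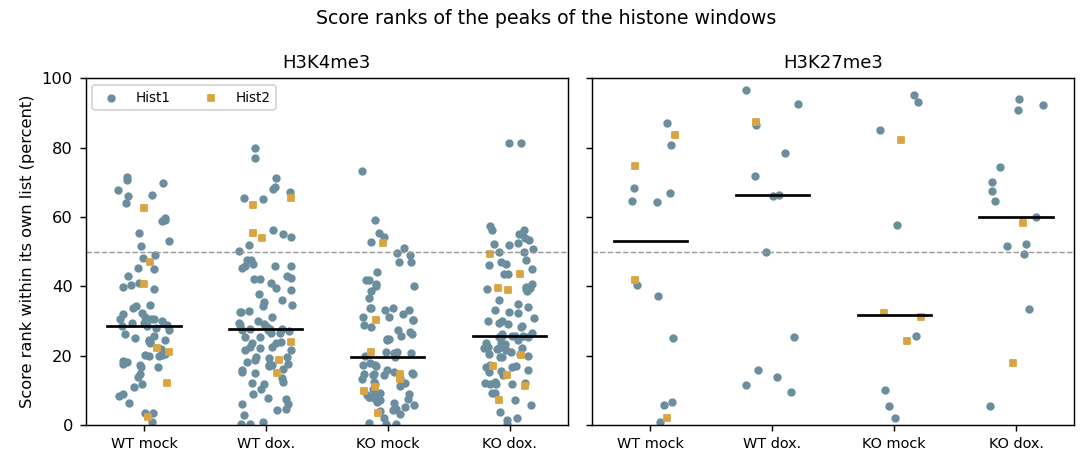
Score rank of each peak within its own list, in percent of the list, for H3K4me3 (left) and H3K27me3 (right). Each point is 1 peak, circles from Hist1 and squares from Hist2, black lines are medians over both windows and the dashed line is the middle of the list. The H3K4me3 medians lie between 19.7% and 28.6%, and points are spread sideways at random for sight only.

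The Hist2 window held 9 joined H3K4me3 regions, none of which was assigned to a gene. It had 7, 7, 8 and 9 peaks. They covered 14.2 kb, 12.5 kb, 12.0 kb and 16.2 kb, which was 17.8%, 15.6%, 14.9% and 20.2% of the window. Of the 9 regions, 5 were present in all 4 lists, 2 in the doxorubicin lists alone, and 2 in every list but WT doxorubicin. Of all H3K4me3 regions, 78.8%, 1.31% and 0.397% had these patterns.

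The 5 Hist2 regions common to the conditions differed widely in score. The region at chr3:96022481-96026317 scored 2051.43 for WT mock, 2226.35 for WT doxorubicin, 1240.29 for KO mock and 2092.78 for KO doxorubicin, over widths of 3827 bp, 3640 bp, 3069 bp and 3781 bp. The region at chr3:96065474-96068529 scored 1392.93, 1764.28, 571.12 and 1448.38, over 2941 bp, 2497 bp, 2663 bp and 2891 bp. At chr3:96071872-96074402 the highest scores were 1137.76, 2148.76, 333.0 and 1708.02, over 2531 bp, 2477 bp, 1700 bp and 2344 bp, and KO mock alone held it as 2 peaks. These 3 were the highest-scoring regions of the window in every list. The region at chr3:96040962-96042555 scored 202.53, 219.15, 166.05 and 294.55, over 1557 bp, 1087 bp, 1099 bp and 1393 bp. The region at chr3:96048487-96049668 scored 450.88, 440.71, 193.86 and 382.29, over 1176 bp, 741 bp, 763 bp and 889 bp.

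The doxorubicin lists shared a Hist2 peak that neither mock list held. It lay at chr3:96077290-96079069 and was 1707 bp wide with a score of 1701.1 in WT doxorubicin cells and 1780 bp wide with a score of 1407.56 in KO doxorubicin cells. The nearest H3K4me3 peak was 2551 bp away in WT mock and 2380 bp away in KO mock cells. Of 16628 H3K4me3 regions in all, 218 (1.31%) had this pattern. Within each doxorubicin list this region had the highest score of the 218, whose median was 120.5 in WT and 123.1 in KO and whose second highest was 361.16 in WT and 1067.19 in KO. Against all peaks of its list it stood near the middle, at a rank of 53.9% in WT doxorubicin and 39.0% in KO doxorubicin. Whether it lies at a histone gene was not determined. The other Hist2 region of this pattern, at chr3:96043397-96043754, was small, 331 bp with a score of 299.33 in WT doxorubicin and 358 bp with 181.58 in KO doxorubicin cells, and lay 884 bp and 841 bp from a mock peak. Its place among the 218 was 8 in WT and 41 in KO.

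WT doxorubicin cells lacked a pair of weaker Hist2 regions that the other conditions held. Over both windows 3 of 86 regions had this pattern, against 66 of all 16628 (0.397%). At chr3:96081417-96082833 the scores were 410.79 in WT mock, 214.37 in KO mock and 132.52 after doxorubicin in KO, over 1268 bp, 1283 bp and 1262 bp. At chr3:96051067-96052702 they were 95.51, 152.16 and 233.62, over 910 bp, 1382 bp and 1454 bp. The first of these is the neighbour of the peak shared by the doxorubicin lists, and KO doxorubicin cells held both.

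**Figure D3:**
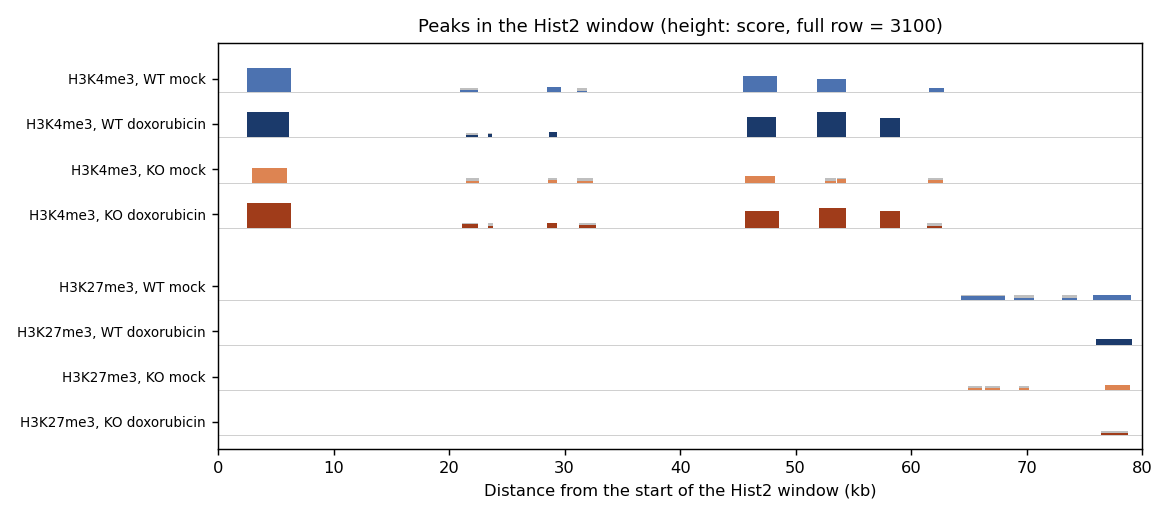
Peaks along the Hist2 window, with distance from its start in kb. Each row is 1 library, the width of a bar is the width of the peak and its height the score, with a full row at 3100, and grey shows the extent of peaks too low to see at that scale. A tall H3K4me3 bar near 58 kb is present in both doxorubicin rows and absent from both mock rows, and H3K27me3 bars lie at the far end.

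H3K27me3 in Hist2 lay beyond the last H3K4me3 region, in the final part of the window. It had 4 peaks for WT mock, 1 for WT doxorubicin, 4 for KO mock and 2 for KO doxorubicin, which covered 10.0 kb, 3.1 kb, 5.6 kb and 2.3 kb. This order depended on the edge of the window: widened by 50 kb on each side, it held 9, 10, 12 and 14 peaks over 22.4 kb, 29.1 kb, 18 kb and 28.7 kb, and doxorubicin then went with the longer coverage in both genotypes. A region at chr3:96095735-96099159 was present in all 4 lists, with scores of 460.99, 533.9, 411.7 and 164.76. The regions at chr3:96084348-96088089, with 299.57 in WT mock and 112.14 in KO mock cells, and at chr3:96088942-96090671, with 133.9 and 102.04, were held by the mock lists alone. Another, at chr3:96093075-96094340, was listed in WT mock cells only, at 81.56, near the lowest score of the lists. H3K27me3 went on past the window, where the next region began 2.0 kb away.

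Hist1 split into 2 blocks with H3K4me3 and a gap without either mark. Block 1 ran over chr13:21801585-22143976 (342.4 kb) with 35 joined H3K4me3 regions, and block 2 over chr13:23361594-23856500 (494.9 kb) with 42. The 1217.6 kb between them held 0 peaks of either mark in the 8 lists. In the RefSeq order, the Vmn1r genes, receptors of the vomeronasal organ, lie between the histone genes H2bc11 and H4c8. Whether the gap and that run of genes are the same stretch was not determined, since the builds differ.

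Both blocks showed the same order of covered length. H3K4me3 covered 58.8 kb, 53.8 kb, 43.7 kb and 55.5 kb of block 1 (29, 37, 33 and 36 peaks) in WT mock, WT doxorubicin, KO mock and KO doxorubicin cells. It covered 96.9 kb, 88.3 kb, 73.3 kb and 90.6 kb of block 2 (41, 51, 50 and 52 peaks). That was 12.8 to 17.2% of block 1 and 14.8 to 19.6% of block 2, with WT mock highest and KO mock lowest in both. Over the whole window the lengths were 155.7 kb, 142.1 kb, 117.0 kb and 146.0 kb.

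H3K4me3 regions were packed closely. Of 9120 stretches of 100 kb that held at least 1 region, the median held 1 and the fullest 16. The stretch chr13:23500001-23600000 held 13, and 1 stretch of the genome held more. The stretch chr13:22000001-22100000 held 12, with 4 above it, and the one with most of Hist2, chr3:96000001-96100000, held 10, with 10 above it. The nearest H3K4me3 region outside Hist1 was 76.3 kb below its window and 471.4 kb above it, and the outermost regions inside lay 101.6 kb and 43.5 kb from the edges. H3K27me3 regions numbered 7 in chr3:96000001-96100000 and 1 to 5 in the Hist1 stretches that held any, where the median of 6748 stretches was 2 and the fullest held 22. For Hist2 the nearest H3K4me3 regions outside were 18.0 kb below and 31.1 kb above, and the outermost inside lay 2.5 kb and 17.2 kb from the edges.

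**Figure D4:**
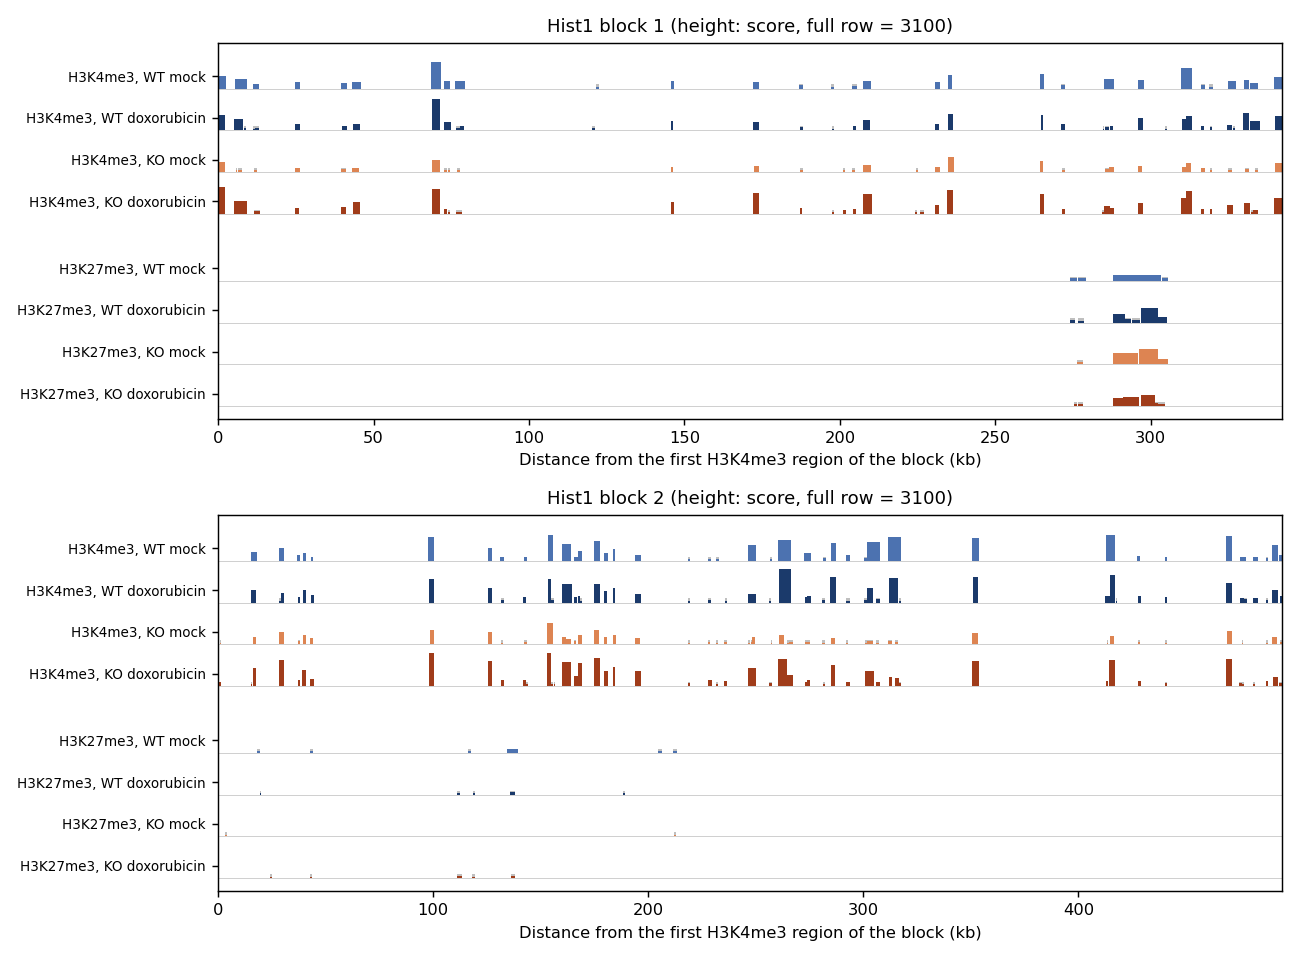
Peaks along the 2 blocks of the Hist1 window, with distance from the first H3K4me3 region of each block in kb. Each row is 1 library, bar height is the score with a full row at 3100, and grey shows the extent of peaks too low to see. H3K4me3 bars recur along both blocks in every condition, and H3K27me3 forms 1 domain, of 17766 bp, near the end of block 1.

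The 5 longest Hist1 regions were in block 2. The longest, chr13:23662054-23669323, was covered over 7075 bp for WT mock, 5712 bp for WT doxorubicin, 4747 bp for KO mock and 6042 bp for KO doxorubicin, as 2, 3, 3 and 2 peaks. At chr13:23621794-23628840 the covered lengths were 6054 bp, 5502 bp, 5159 bp and 6710 bp. At chr13:23673019-23679053 they were 5960 bp, 5243 bp, 3168 bp and 4299 bp. KO mock was the lowest of the 4 lists at each of the 5 longest regions. The region chr13:23774009-23778548 followed with 4182 bp, 4450 bp, 2711 bp and 3425 bp. The fifth, chr13:23521560-23525966, was nearly even, at 4225 bp, 4309 bp, 4139 bp and 4204 bp.

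The highest-scoring Hist1 region differed between lists. It was chr13:21870133-21873110 in WT mock, chr13:23621794-23628840 in WT doxorubicin and chr13:23514667-23517558 in KO mock, and in KO doxorubicin the last of these tied with chr13:23459178-23462011. The 5 regions with the highest mean over the lists, a measure that pools lists of different scale and whose order is therefore not read, were these 4 and chr13:23774009-23778548. The region chr13:23514667-23517558 had scores of 2379.33, 2213.52, 1946.02 and 3100. The region chr13:23459178-23462011 had 2217.53, 2231.53, 1323.65 and 3100. The 2 peaks at 3100 in KO doxorubicin cells were the only peaks of the windows at 3100 or above, against 5350 peaks of that whole list. The region chr13:21870133-21873110, the only one of the 5 in block 1, had 2464.14, 2875.15, 1130.27 and 2297.56. The region chr13:23621794-23628840 had 1920.99, 3097.88, 908.65 and 2542.19. The region chr13:23774009-23778548 had 2416.44, 2530.13, 765.21 and 2395.47.

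Most H3K4me3 regions of the windows were common to the conditions, in a share close to that of all regions. Of the 86 regions in the 2 windows, 68 (79.1%) were present in all 4 lists, against 78.8% of all 16628, and 6 (6.98%) were in 1 list, against 9.79%. The median region of the 68 was covered over 2087.5 bp for WT mock, 2000.5 bp for WT doxorubicin, 1604.0 bp for KO mock and 1907.0 bp for KO doxorubicin, and the extremes were 413 bp (KO mock) and 7075 bp (WT mock). KO mock alone was the shortest of the 4 in 42 of the 68 regions (61.8%), against 45.9% of all 13107 regions held by all lists. WT doxorubicin was so in 13 (25.7% of all), KO doxorubicin in 10 (24.5%) and WT mock in 3 (3.66%). WT mock alone was the longest in 40 (58.8%, against 55.6%), WT doxorubicin in 12 (20.9% of all), KO doxorubicin in 12 (15.6%) and KO mock in 4 (7.69%).

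In WT cells, doxorubicin went with a shorter H3K4me3 coverage of the windows. The ratio of covered length, doxorubicin to mock, was 0.91, and 0.961 over the whole lists. Of the 68 common regions, 53 were shorter and 15 longer (73.5% and 26.4% of all 13107), with a median ratio of 0.889 against 0.919 over all. Of the 95 peaks of the doxorubicin list 7 were gained, meaning that no mock peak overlapped them (7.37%, exact 95% interval 3.01 to 14.6, against 8.25% of the list). Of the 77 mock peaks 4 were lost (5.19%, interval 1.43 to 12.8, against 2.21%). The gained peaks had a median score of 115.79, and 4 of the 7 lay within 1 kb of a mock peak. Intervals cover counting error over peaks only.

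In KO cells, doxorubicin went with a longer H3K4me3 coverage. The ratio was 1.26, and 1.08 over the whole lists. Of the 68 regions, 55 were longer and 13 shorter (63.7% and 36.2% of all), with a median ratio of 1.17 against 1.05. The gained peaks were 11 of 97 (11.3%, interval 5.8 to 19.4, against 8.84%), and 8 of them lay within 1 kb of a mock peak. Among them, chr13:22133959-22134576, chr13:23376906-23377505, chr13:23678057-23679027 and chr13:23836357-23837528 were pieces of regions that all 4 lists held. No peak of the 91 in KO mock was lost (against 2.69% of the list), and 3 counts, the limit taken for a count of 0, would be 3.3%. Apart from the Hist2 peak described above, the gains scored 87.38 to 298.76.

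The KO to WT ratio of H3K4me3 coverage was below 1 without doxorubicin and just above 1 with it, and this difference between treatments was not tested. In mock cells the ratio was 0.759, and 0.811 over the whole lists, with 60 of the 68 regions shorter and 8 longer (85.7% and 14.2% of all) and a median ratio of 0.797 against 0.854. In doxorubicin cells the ratio was 1.05, and 0.911 over the whole lists, with 29 shorter and 39 longer (53.3% and 46.5% of all) and a median of 1.03 against 0.986. The histone windows and the whole lists thus went in opposite directions in the doxorubicin comparison, by a small margin that has no replicate error to be set against.

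**Figure D5:**
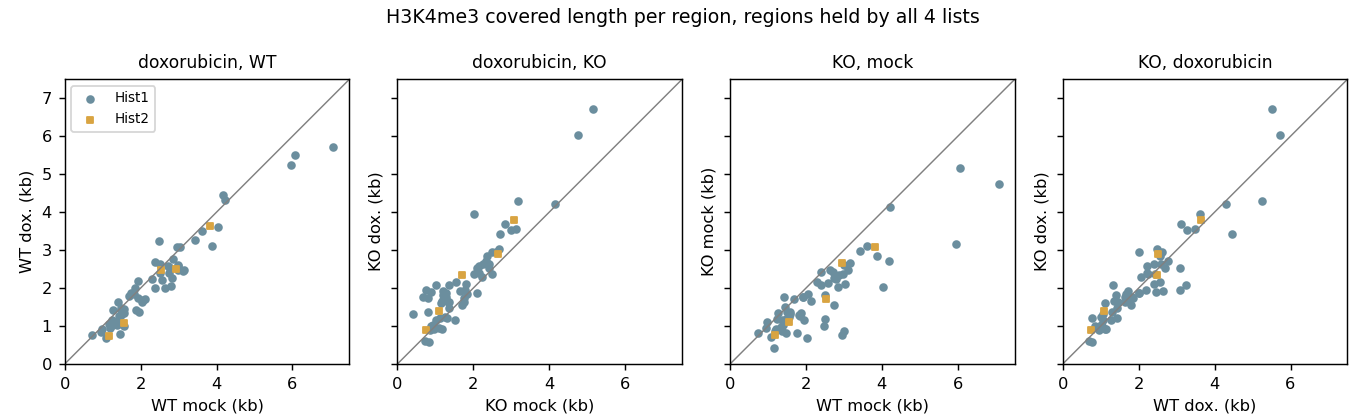
Covered length in kb of the 68 H3K4me3 regions held by all 4 lists, 1 library on each axis, for the 4 comparisons. Each point is 1 region, circles from Hist1 and squares from Hist2, and the line marks equal lengths. Points lie mostly below the line for KO against WT in mock cells (60 of 68) and mostly above it for doxorubicin against mock in KO cells (55 of 68).

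Peaks of the genotypes were also compared within each treatment, where the other genotype could hold the same place under the other treatment. In mock cells 4 of 91 KO peaks were gained against WT (4.4%, interval 1.21 to 10.9, against 1.94% of the list) and 3 of 77 WT peaks were lost (3.9%, 0.811 to 11.0, against 9.32%). In doxorubicin cells 9 of 97 were gained (9.28%, 4.33 to 16.9, against 4.41%) and 4 of 95 lost (4.21%, 1.16 to 10.4, against 11.9%). Over the 4 lists, 3 regions were held by both KO lists and neither WT list (69 of all regions, 0.415%), and 0 of 86 by both WT lists alone (3.55% of all). The doxorubicin lists alone held 3, the 2 of Hist2 and a weak one at chr13:22086010-22086629 (1.31% of all), and the mock lists alone 0 (0.132% of all). Of the 8 gained or lost H3K4me3 shares, only losses in KO against WT doxorubicin cells had an interval ending below their list's share. The margin was small (10.4 against 11.9%), and no allowance was made for looking at 8 intervals. Peaks of a single library are also not replicates, so no difference is read from it. The gained peak chr13:23504951-23505663 and the lost peak chr13:23838550-23839994 in doxorubicin cells were pieces of regions that all 4 lists held. Asking for a larger overlap gave 8 of these losses, and sharing within 1 kb gave 2.

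The 3 regions of the KO lists were all in Hist1. The region chr13:22002441-22003427 scored 215.64 in KO mock and 405.11 with doxorubicin, places 8 and 4 among the 69 within those lists. At chr13:23361594-23362888, the first region of block 2, the scores were 81.18 and 391.28, places 66 and 6. At chr13:22025670-22026794 they were 97.1 and 153.94, places 44 and 31. The KO mock scores of these last regions were under 100, near the lowest score listed.

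Among the other Hist1 regions absent from a list, the highest score was 501.26 in KO doxorubicin cells, at chr13:23596947-23598389, which scored 210.9 in KO mock and 104.24 in WT doxorubicin cells and was not listed in WT mock. The region chr13:23842835-23845285 scored 330.66 in WT mock, 434.14 in WT doxorubicin and 189.95 in KO doxorubicin cells and was not listed in KO mock. The same list lacked chr13:21998811-21999812, at 103.42, 115.15 and 195.01 in the others. WT doxorubicin lacked chr13:23592921-23594465, at 151.38 in WT mock, 102.89 in KO mock and 188.42 after doxorubicin in KO. Of the 6 regions in a single list, the 3 highest-scoring were chr13:21921693-21922773 (229.41) and chr13:22106274-22106735 (115.79) in WT doxorubicin and chr13:22027471-22028677 (117.53) in KO doxorubicin cells, and the others scored 85.02 to 95.12.

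The longest H3K27me3 stretch of Hist1 was a domain in block 1. The domain chr13:22089361-22107126 was covered over 17630 bp for WT mock, 16973 bp for WT doxorubicin, 17372 bp for KO mock and 15701 bp for KO doxorubicin, as 2, 5, 3 and 6 peaks, with highest scores of 571.66, 1354.31, 1372.6 and 1016.1. WT mock listed most of it as a single peak of 15595 bp. The only other Hist1 region common to all lists, chr13:22077960-22080837, was covered over 2782 bp, 1754 bp, 1916 bp and 1649 bp, with scores of 242.83, 144.44, 170.74 and 191.09. Next to it, chr13:22075510-22077747 was covered over 2013 bp, 1872 bp and 968 bp in every list but KO mock.

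H3K27me3 in block 2 was made of 11 separate regions, none of them held by all 4 lists. The longest, chr13:23496086-23500875, was covered over 4790 bp in WT mock (score 395.54), 1948 bp after doxorubicin in WT (244.48) and 1501 bp in KO doxorubicin cells (171.77) and was not listed in KO mock. Its ranks within those lists were 80.9%, 71.8% and 60.1%. The doxorubicin lists alone held chr13:23472609-23475154, at 101.56 in WT and 206.06 in KO (ranks of 25.3% and 67.5%), and chr13:23479441-23481198, at 92.32 and 140.04. The WT lists alone held chr13:23379779-23381556, at 124.62 and 88.86. WT mock alone held chr13:23566137-23567864 (104.85) and, past the block, chr13:23862461-23865170 (215.93), and the mock lists chr13:23879134-23881097 (85.0 and 88.33). Of the 22 H3K27me3 regions of both windows, 3 (13.6%) were in all lists, against 26.1% of all 24298, and 9 (40.9%) in 1 list, against 44.1%. The mock lists alone held 4 (3.79% of all), the doxorubicin lists alone 2 (3.42%), the WT lists alone 1 (3.71%) and the KO lists alone 0 (2.4%).

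The H3K27me3 comparisons rest on few peaks. Doxorubicin in WT cells went with 4 of 14 peaks gained (28.6%, interval 8.39 to 58.1, against 29.3%) and 9 of 16 lost (56.2%, 29.9 to 80.2, against 35.4%). In KO cells 6 of 15 were gained (40.0%, 16.3 to 67.7, against 35.3%) and 7 of 12 lost (58.3%, 27.7 to 84.8, against 34.1%). KO against WT gave 2 of 12 gained (16.7%, 2.09 to 48.4, against 25.5%) and 8 of 16 lost (interval 24.7 to 75.3%, against 36.3%) in mock cells. In doxorubicin cells it gave 2 of 15 gained (13.3%, 1.66 to 40.5, against 32.2%) and 3 of 14 lost (21.4%, 4.66 to 50.8, against 35.3%). Every one of these 8 intervals held the share of the whole list. Covered length had ratios of 0.621 and 0.998 for doxorubicin in WT and KO (0.812 and 0.99 over the lists), and of 0.582 and 0.934 for KO in mock and doxorubicin cells (0.756 and 0.922).

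H3K4me3 and H3K27me3 met at few peaks of the windows. Of the H3K4me3 peaks, 3 of 77 overlapped an H3K27me3 peak in WT mock (3.9%, interval 0.811 to 11.0, against 16.2% of the list), 3 of 95 in WT doxorubicin (3.16%, 0.656 to 8.95, against 16.3%), 2 of 91 in KO mock (2.2%, 0.267 to 7.71, against 13.3%) and 3 of 97 in KO doxorubicin cells (3.09%, 0.642 to 8.77, against 12.0%). The intervals end below the share of the whole list in all 4 conditions. However, neighbouring peaks are not independent, and a region listed in pieces counts more than once. The conditions also share most regions, so the 4 intervals do not stand for 4 separate observations. In every condition 2 of the overlapping peaks lay at the 17766-bp domain of block 1, which also held the WT doxorubicin peak chr13:22106274-22106735. The others were at chr13:23404519-23405792 in WT mock and chr13:23404469-23405952 in KO doxorubicin cells. In Hist2 no H3K4me3 peak of 7, 7, 8 and 9 met H3K27me3, and with 3 counts as the limit for a count of 0 this allows shares of up to 42.9%, 42.9%, 37.5% and 33.3%.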

How the data were processed

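The series had 12 samples, 8 ChIP libraries and 4 input libraries (chromatin without antibody, not analysed here). Per the labels' protocols, fixation was in 1% formaldehyde for 10 min and fragments measured 300 to 500 bp. The submitters' processing notes name Bowtie 0.12.7, MACS 1.4.2 and mm9, and other parameters are not given in the sources used here. The deposited lists give a position, a name and a score per peak, the score being minus 10 times the log10 of a p-value per the file headers. Peak numbers, widths, covered lengths and overlaps were computed here. Starts were taken to count from 0 and are printed from 1. Regions are overlapping peaks of a mark joined over the 4 lists, and Hist1 was split into blocks where H3K4me3 regions lay over 100 kb apart. The rule for named regions took all Hist2 regions and, in Hist1, the 5 longest and 5 highest-scoring H3K4me3 regions, up to 10 absent from a list and the 10 longest H3K27me3 regions. The windows and lists were chosen with earlier results of these data known. The Hist2 peak of the doxorubicin lists was among the gains known from that earlier work, and the count of regions in which a list was shortest or longest and the places within a pattern were added after the data were seen. Intervals are exact (Clopper-Pearson) at 95%. Alternatives were a score of at least 100, equal numbers of top peaks per list, joining within 3 kb, an overlap of 50%, sharing within 1 kb and windows widened by 50 kb. Overlap and joining rules were tested on 13905 peaks of the WT mock H3K4me3 list, shifted, dropped or shortened by design. The window and covered-length rules were tested on a few made-up peaks only. In all, 10 of 10 rules gave back what was put in. Tools were pandas 2.3.3, numpy 2.4.6, scipy 1.17.1 and matplotlib 3.10.9 under Python 3.11.15.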

Additional observations from a re-analysis of the deposited data

Results flagged for a closer look

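The doxorubicin minus mock difference in H3K4me3 covered length over both windows was of opposite sign in the genotypes, -15.3 kb in WT and 33.2 kb in KO cells. Over the whole lists it was -1.29 Mb and 2.16 Mb. The KO minus WT difference was -40.9 kb in mock and 7.6 kb in doxorubicin cells, where the whole lists gave -6.31 Mb and -2.86 Mb. The number of H3K27me3 peaks, doxorubicin minus mock, differed by -2 in WT and 3 in KO cells, and KO minus WT by -4 in mock and 1 in doxorubicin cells, while the whole lists gave 1357 and 1248 and then 420 and 311. With windows widened by 50 kb the H3K27me3 peak numbers were 22 and 24 in WT and 20 and 28 in KO cells, mock and then doxorubicin, so that the doxorubicin differences no longer had opposite signs. Each value rests on 1 library per condition, the contrasts share libraries, and none of these differences between groups was tested.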

How the results depend on the processing

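Of 192 alternative values for 40 results of both windows, 144 stayed within 1.5 times of the reported value, and 13 results did so under every alternative run. None of 16 alternative values of H3K4me3 covered length moved further, against 3 of 16 H3K4me3 peak numbers and 17 of 48 counts of gained or lost H3K4me3 peaks. Why values moved was not tested. The limit of 1.5 times was wider than the differences in H3K4me3 covered length between conditions, so their order could change within it. With peaks under 3 kb apart joined, the lengths were 210.6 kb, 202.9 kb, 175.7 kb and 217.4 kb. KO doxorubicin was then the longest instead of WT mock, and KO mock remained the shortest. With a score of at least 100, H3K4me3 losses with doxorubicin in WT were 2. For H3K27me3, gains with doxorubicin in WT were 1, losses in KO 4, gains in KO against WT mock 1 and losses in KO against WT doxorubicin 0. With equal numbers of top peaks, H3K4me3 gains with doxorubicin in WT were 3, losses in KO 1, losses in KO against WT 1 in mock and 2 in doxorubicin cells, and 3 regions were held by 1 list, while H3K27me3 gains in KO against WT were 1 in mock and 1 in doxorubicin cells. Joining peaks under 3 kb apart left 52 H3K4me3 peaks in WT mock, against 77 reported, and 53, 56 and 54 in WT doxorubicin, KO mock and KO doxorubicin. The joined numbers of the 4 conditions were thus close to each other. Gains with doxorubicin were then 3 in WT and 1 in KO, losses in WT 2, gains in KO against WT 2 in mock and 2 in doxorubicin cells, losses there 2, and 1 region was held by 1 list. For H3K27me3, joining left 9, 7 and 8 peaks in WT doxorubicin, KO mock and KO doxorubicin cells, while the WT mock number stayed within 1.5 times. It also left 4 losses with doxorubicin in KO and 1 gain in KO against WT mock. Asking for an overlap of 50% gave 17 H3K4me3 gains with doxorubicin in KO, 11 losses in KO against WT mock and 8 in doxorubicin cells, and 1 KO mock H3K4me3 peak at H3K27me3. Sharing within 1 kb gave 3 H3K4me3 gains with doxorubicin in WT and 3 in KO, 2 losses in KO against WT doxorubicin and 1 H3K27me3 gain in KO against WT mock. Windows widened by 50 kb held 24, 20 and 28 H3K27me3 peaks in WT doxorubicin, KO mock and KO doxorubicin cells (22 in WT mock, which turns the sign of the doxorubicin difference in WT), covering 57.2 kb in the first and 55.7 kb in the last. Their H3K27me3 gains with doxorubicin were 8 in WT and 14 in KO, gains in KO against WT 4 in mock and 6 in doxorubicin cells, losses there 5, and 7 regions were held by 4 lists. H3K4me3 peaks at H3K27me3 were then 6 in WT doxorubicin and 5 in KO doxorubicin cells. No paired analysis was possible because each mark and condition had 1 library and the labels carry no replicate numbers.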
